A study of Mus musculus with 9 samples.

Results

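Features that were abundant in the Input RNA of N2A cells and nearly missing from RNA pulled down with antibody to phosphorylated UPF1 (p-UPF1) were examined transcript by transcript. They were *Yipf1*, *Letm2*, *Slc38a6*, *Gm47652*, *Gm37614*, *Gm37625* and *Gm45322*, taken by symbol from the deposited table, 7 of its 54325 symbols, and they held 36 of its 140658 transcript rows. The members were chosen by their high counts in Input and low counts in the p-UPF1 IP, so those values and their ratio are given as a description with no p-value, and nothing is read from calls in those contrasts. All libraries came from N2A, a mouse neuroblastoma line, after 200 nM okadaic acid, a phosphatase inhibitor, for 2 h, which the control libraries share. The 3 groups were Input (size-matched RNA with no immunoprecipitation), rIgG IP (the control pull-down with rabbit IgG) and p-UPF1 IP, with 3 libraries each. RNA had been trimmed with RNase so that reads report fragments protected by bound protein. The labels do not say that replicates were separate cultures, so p-values measure only the spread between these samples, which may be technical.

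UPF1 is the helicase at the centre of nonsense-mediated mRNA decay (NMD). It is phosphorylated when it acts on a message whose translation ended too early, and antibody to p-UPF1 is used to enrich such messages. *Yipf1* encodes a membrane protein of the Golgi, *Letm2* a protein related to the inner-membrane mitochondrial protein LETM1, and *Slc38a6* a member of the amino acid transporter family SLC38. *Gm47652*, *Gm37614* and *Gm37625* are annotated as TEC, transcripts still to be experimentally checked, and *Gm45322* as a long intergenic noncoding RNA.

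The depth of the groups differed. Input libraries held 25184464 to 29857955 counts, p-UPF1 IP libraries 5312526 to 6246110 and rIgG IP libraries 79010 to 474491, so that 3 counts, the most that a count of 0 allows, corresponded to 0.100 to 0.119, 0.480 to 0.565 and 6.32 to 38.0 CPM. A value in CPM is the count divided by the library total and scaled to 1000000. Of 16 neuroblastoma and neuron markers, 12 reached 1 CPM in every Input library, and their summed level was 233 to 262 CPM in Input, 219 to 291 in the rIgG IP and 232 to 262 in the p-UPF1 IP. Summed markers of fibroblasts reached at most 2.82 CPM in any library, those of astroglia 2.11, of blood 14.8 and of epithelium 0.188. The blood value came from an rIgG IP library, and in Input the blood markers summed to at most 0.159 CPM. Intervals below cover counting error only, since amplified reads without molecular identifiers are not independent molecules.

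The sequence of 4 members joined them to each other and to many other features, which bears on every count given here because short reads from shared sequence can be divided among features. Sharing was counted in windows of 35 nt, the shortest read kept by the study, and the runs printed here are shorter stretches of 30 nt that the named features hold in common. Runs were searched only in the members concerned and in some transcripts of other genes. The latter share at least 50 windows with these members and have at least 10 CPM in Input. The first run below was held by *Gm37614*, by the transcript Slc38a6-208 and, as its reverse complement, by *Gm45322*. In all it was held by 11 of the transcripts searched. Capitals mark the same 6 bases in both directions, so that they open the run in one and close it, complemented, in the other. The first run lies at chr9:88826759-88826788 on the minus strand in *Gm37614* and at chr8:49838856-49838885 on the plus strand in *Gm45322*, and *Gm42860*, at chr5:60805381-60805410 on the minus strand, is a gene that is not a member.
Gm37614: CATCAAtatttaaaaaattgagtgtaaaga
Gm45322: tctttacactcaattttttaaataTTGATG
Gm42860: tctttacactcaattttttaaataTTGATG
The second run joined *Gm47652*, at chr9:37331421-37331450 on the minus strand, to both abundant *Slc38a6* transcripts. In all it was held by 17 of the transcripts searched, again with *Gm42860*, at chr5:60803957-60803986 on the minus strand, in the other direction.
Gm47652: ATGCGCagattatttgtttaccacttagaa
Gm42860: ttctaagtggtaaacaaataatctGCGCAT
The third run, shown because it gives *Gm37625* a partner in the other direction, lies at chr1:128089299-128089328 on the minus strand in *Gm37625* and at chr3:51104573-51104602 on the plus strand in *Gm38246*.
Gm37625: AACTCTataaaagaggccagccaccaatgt
Gm38246: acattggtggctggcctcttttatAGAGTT
All coordinates are GRCm38, with sequences from GENCODE M21 transcripts, which hold 139921 of the 140658 transcripts of the table.

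Single transcripts carried the counts. *Yipf1* has 11 transcripts in the table, and Yipf1-208 (ENSMUST00000140162.7) held at least 99.9% of the gene's counts in every Input library and all of them in every rIgG IP library. It is a processed transcript without a coding frame, 2672 nt long, in 3 exons at chr4:107314369-107321439 on the plus strand, of which the longest exon spans 2498 nt. Its Input counts were 92273, 77796 and 104321, its rIgG IP counts 6730, 1832 and 398, and its p-UPF1 IP counts 1, 4 and 1. The p-UPF1 IP libraries thus stood far below all others, as the choice by low p-UPF1 IP counts implies.

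*Letm2* has 13 transcripts, and Letm2-208 (ENSMUST00000210616.1) held 99.9% of its counts in each Input library and all counts in each rIgG IP library. It is annotated as protein-coding, 2974 nt long, at chr8:25591654-25597496 on the minus strand, with 513 nt of coding sequence and 2047 nt of 3′ UTR. Its Input counts were 19131, 17447 and 21545, its rIgG IP counts 59, 29 and 13, and its p-UPF1 IP counts 3, 1 and 1. *D830025C05Rik*, an antisense gene over its 5′ end, reached only 0.837 ± 0.300 CPM (SD, n = 3) in Input, and *Gm45570*, within its intron, only 2 counts in the 3 Input libraries together. The strand setting of the counting is not given in the sources used here, so reads of the antisense gene could not be set apart with certainty.

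*Slc38a6* divided its counts between a pair of transcripts. Slc38a6-202 (ENSMUST00000101313.3; 1546 nt; chr12:73287060-73312182, plus strand) held 82.7% ± 0.920 (SD, n = 3) in Input and 80.7% ± 2.25 in the rIgG IP. Its counts were 16575, 17132 and 17270 in Input, 184, 115 and 39 in the rIgG IP, and 0, 14 and 0 in the p-UPF1 IP. Slc38a6-208 (ENSMUST00000153941.7; 3927 nt) had 3233, 3067 and 3156 Input counts, against rIgG IP counts of 48, 23 and 9 and p-UPF1 IP counts of 30, 20 and 36. Of the 1512 windows of Slc38a6-202, 1417 are also in other transcripts of the gene and as many in Slc38a6-208, so the split between this pair rests on the estimation by the counting program.

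**Figure D1:**
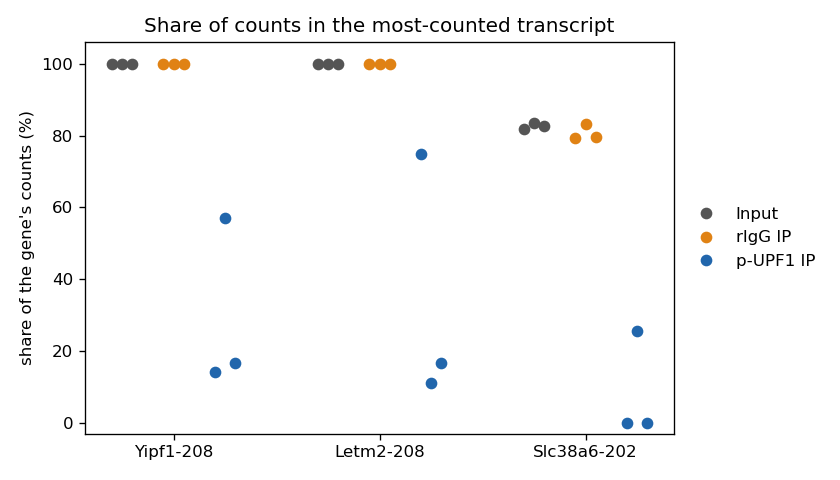
Share of each gene's counts (%, vertical axis) in its most-counted transcript for the 3 members with more than 1 transcript, one point per library. Input and rIgG IP libraries lie at 79.3% or above, and p-UPF1 IP shares range from 0 to 75.0% and rest on 4 to 55 counts per library and gene.

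Outside these transcripts the same genes were sparsely counted, and the summed remainders kept more of their Input level in the p-UPF1 IP. The other 10 *Yipf1* transcripts together held 133 Input counts and 14 p-UPF1 IP counts, or 1.64 ± 0.267 against 0.809 ± 0.316 CPM (SD, n = 3), a ratio of pooled shares of 48.5% (95% exact conditional interval 25.8 to 84.3%). The other 12 *Letm2* transcripts held 66 and 14 counts, a ratio of 97.8% (50.7 to 176%). The 6 *Slc38a6* transcripts beyond Slc38a6-202 and Slc38a6-208 held 1231 and 55 counts, a ratio of 20.6% (15.4 to 27.0%). Within that remainder, Slc38a6-206 had 21, 16 and 23 Input counts and 14, 20 and 18 with the p-UPF1 antibody, whereas Slc38a6-201, annotated as an NMD transcript, had 440, 273 and 439 in Input and 0 in every IP library. Most Input counts of the *Slc38a6* remainder were thus in a transcript with 0 p-UPF1 IP counts. The remainders of *Yipf1* and *Letm2* had 0 counts in all rIgG IP libraries, which was under the detection limit at that depth.

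The 4 remaining members have 1 transcript each. *Gm45322* (ENSMUST00000211642.1; 1361 nt; chr8:49838068-49839428, plus strand) lies within the span of the noncoding gene *Gm45321*, which had 0 counts in all libraries. Its Input counts were 28188, 29111 and 29064, its rIgG IP counts 336, 165 and 41, and its p-UPF1 IP counts 507, 709 and 642. *Gm47652* (ENSMUST00000217345.1; 4663 nt; chr9:37329767-37334429, minus strand) lies within *Ccdc15* on the same strand. Its Input counts were 14571, 14698 and 15193, its rIgG IP counts 182, 75 and 49, and its p-UPF1 IP counts 8, 10 and 13. Both host genes were far below these levels, *Ccdc15* at 0.622 ± 0.135 CPM in Input (SD, n = 3).

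*Gm37614* (ENSMUST00000195645.1; 210 nt; chr9:88826604-88826813, minus strand) lies within the RefSeq span of *Gm10634*. Its Input counts were 7234, 7023 and 7015, its rIgG IP counts 119, 44 and 16, and its p-UPF1 IP counts 0, 1 and 0. *Gm37625* (ENSMUST00000194969.1; 4872 nt; chr1:128084460-128089331, minus strand) lies within *Zranb3*, which encodes a DNA annealing helicase and reached 1.94 ± 0.229 CPM in Input. Its counts were 3502, 3471 and 3894 in Input, 39, 16 and 5 in the rIgG IP and 1, 4 and 2 in the p-UPF1 IP. For all 7 members each p-UPF1 IP library lay below each Input and each rIgG IP library on the CPM scale. They were chosen by high Input and low p-UPF1 IP counts, and the share of all symbols with this order was not counted.

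As a level per length in Input, the most-counted transcripts ran from Yipf1-208 at 1264 ± 93.6 and *Gm37614* at 1257 ± 120 CPM per kb (SD, n = 3), which did not differ beyond their spread, through *Gm45322* at 787 ± 67.5, Slc38a6-202 at 409 ± 33.1, Letm2-208 at 241 ± 7.27 and *Gm47652* at 118 ± 8.19 to *Gm37625* at 27.6 ± 0.762. The other neighbours in that order were separated by more than their SDs. Together the members took 0.688% ± 0.0207 of Input counts, 1.16% ± 0.451 of rIgG IP counts and 0.0118% ± 0.00123 of p-UPF1 IP counts (SD, n = 3 each).

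**Figure D2:**
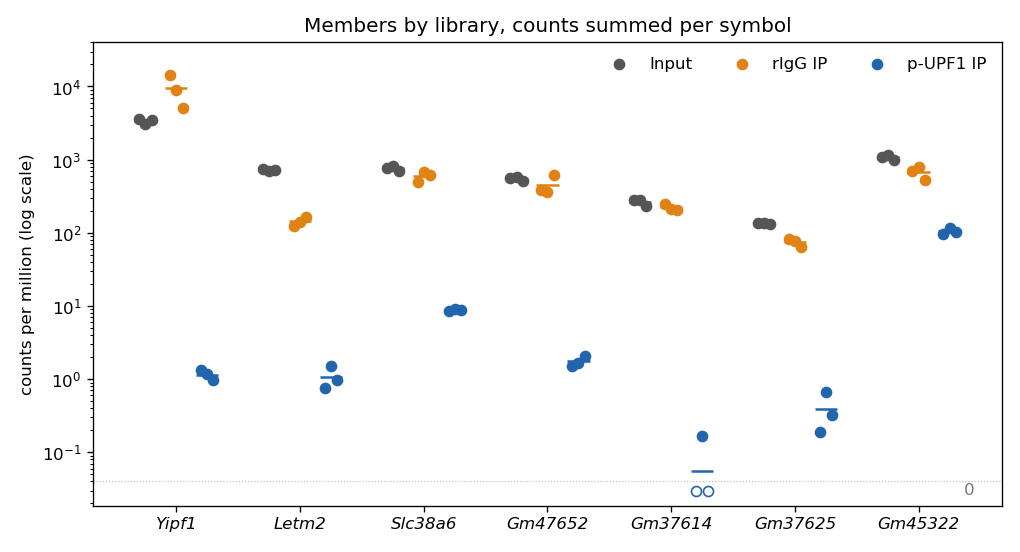
CPM (vertical axis, log scale) of each member, summed over its transcripts, with one point per library and a line at each group's mean; open points at the foot mark 0. All p-UPF1 IP points lie below the Input and rIgG IP points of the same member, with *Gm45322* at 95.4 to 118 CPM and *Gm37614* at 0 in 2 libraries. The members were chosen by low p-UPF1 IP counts.

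The depth of the loss in the p-UPF1 IP differed widely among members. As shares pooled over the 3 libraries of a group, Input exceeded the p-UPF1 IP 9923-fold for Yipf1-208 (95% exact conditional interval 4559 to 27041) on 6 p-UPF1 counts, 2522-fold for Letm2-208 (1081 to 7769) on 5 counts and 790-fold for Slc38a6-202 (471 to 1445) on 14 counts, all in 1 library. *Gm37614*, with 1 count, gave 4616-fold with an interval of 828 to 182325. *Gm37625* gave 337-fold (163 to 838) and *Gm47652* 311-fold (219 to 458). *Gm45322* was only 10.1-fold lower (9.63 to 10.6) on 1858 counts. Among the summed values *Slc38a6* was 86.3-fold lower (73.7 to 101.7). Of its 155 summed p-UPF1 IP counts, 14 were from Slc38a6-202 and 55 from the 6 transcripts beyond the abundant pair, and Slc38a6-208 kept 4.19% of its Input CPM.

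With all symbols fitted, the 7 members were among those lower in the p-UPF1 IP than in Input by more than 1 on the log2 scale at an adjusted p under 0.05 in edgeR's quasi-likelihood test, as were 26.5% of 16919 symbols tested. They were also among those lower than in the rIgG IP, as were 5.34% of 12033. By transcript the shares lower were 16.2% and 1.34%, beside 8.55% higher than Input, 24.8% in either direction. These contrasts chose the members, and nothing is read from the counts. Among the 137 symbols whose mean Input CPM was at least that of *Gm37625*, 134 CPM, the order by ratio of p-UPF1 IP to Input mean CPM placed *Gm37614* 5th, *Yipf1* 6th, *Letm2* 7th, *Gm37625* 9th, *Gm47652* 10th, *Slc38a6* 16th and *Gm45322* 37th from the lowest. Another 30 symbols had ratios at or below that of *Gm45322*, among them all 12 mitochondrial tRNA symbols in this abundance range, and the median ratio of the 137 was 34.9%.

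The comparison of rIgG IP with Input asks whether the members behave alike in a pull-down without the p-UPF1 antibody. It was not used to choose the members, though it shares the Input libraries with the choice. *Letm2* alone passed the thresholds: it was lower in the rIgG IP, at 124, 141 and 165 CPM against 736, 693 and 722 in Input, a log2 fold change of -2.67 ± 0.21 (SE; edgeR quasi-likelihood test, Benjamini-Hochberg adjusted p = 4.091e-05). Such calls covered 0.897% of the 16280 symbols tested, with 0.313% lower and 0.584% higher. Leaving out any 1 library kept the edgeR adjusted p of *Letm2* between 2.754e-12 and 0.0007368. On simulated counts the test recovered 52.5% of changed symbols, so a member that did not pass may still have changed.

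*Yipf1* lay on the other side, at 14184, 8929 and 5037 CPM in the rIgG IP against 3548, 3090 and 3496 in Input. The log2 fold change of 1.25 ± 0.44 (SE) did not pass the test (edgeR adjusted p = 0.2753). The rIgG IP libraries that held 474491, 205177 and 79010 counts stood in the same order as their *Yipf1* levels, and the part of depth in the difference was not tested. Without rIgG IP replicate 1 the log2 fold change was 0.56, without replicate 3 it was 1.63 with an edgeR adjusted p of 0.02558, and without Input replicate 2 it was 1.25 with an edgeR adjusted p of 0.03899.

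The other 5 members had log2 fold changes between -1.02 ± 0.23 for *Gm37625* and -0.47 ± 0.23 for *Gm37614*, with edgeR adjusted p from 0.08168 to 0.4601. The median over all tested symbols was -0.84, which lies within the range of these 5 members, below *Yipf1* and above *Letm2*. That reference point depends on the fit: without rIgG IP replicate 1 the median was -4.09, below all 7 members, and in DESeq2 it was 0.25, above all but *Yipf1*. On the CPM scale the rIgG IP libraries of these 5 members overlapped Input for *Gm37614* and *Gm47652* and lay below it for *Slc38a6*, *Gm37625* and *Gm45322*. How many of all symbols lay below Input in this way was not counted, so nothing is read from this division.

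By transcript, 0 of 36312 tested passed in either direction in edgeR, or 0% of the table, where 478 were higher and 6509 lower at an unadjusted p under 0.05 with a log2 fold change beyond 1, and DESeq2 called 580 higher and 789 lower. On simulated counts of this comparison by transcript the edgeR test recovered 0% of 200 changed transcripts, so the absence of calls says nothing of the members. The log2 fold change of Letm2-208 was -3.44 ± 0.25 (edgeR adjusted p = 0.05583) and that of Yipf1-208 0.54 ± 0.62 (edgeR adjusted p = 0.6919). The most-counted *Slc38a6* transcript and *Gm47652* had the same edgeR adjusted p as Letm2-208, at log2 fold changes of -1.51 and -1.44. *Gm37625*, *Gm45322* and *Gm37614* stood at -1.85, -1.69 and -1.27 (edgeR adjusted p = 0.05673, 0.08254 and 0.1268). Letm2-208 was thus the lowest member but was not set apart by its adjusted p. The median over all tested transcripts was -4.58, below every member, and in DESeq2 it was 0.59.

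**Figure D3:**
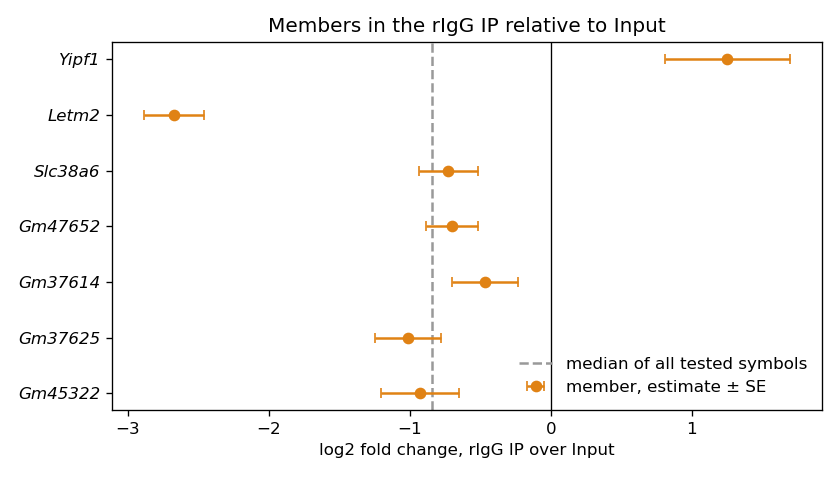
Log2 fold change of rIgG IP over Input for each member's summed counts (points, with SE bars) beside the median of all tested symbols (dashed line). *Letm2* at -2.67 and *Yipf1* at 1.25 lie on either side of the other members, which sit between -1.02 and -0.47.

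What the members share beyond the choice is sequence, but not all of them share it. For *Gm37614* all 176 windows of 35 nt occur in another gene in one direction or the other, for *Gm45322* 77.2%, for Slc38a6-202 66.4%, for *Gm47652* 51.9%, for *Gm37625* 22.9%, for Letm2-208 11.9% and for Yipf1-208 2.81%. Over the other 103 transcripts at least as abundant in Input as *Gm37625*, the median was 42.1%. In Slc38a6-202 and Slc38a6-208, 99.4% and 99.8% of the shared windows begin after the coding sequence, in the 3′ UTR. None of the windows of *Slc38a6*, *Gm47652*, *Gm37614*, *Gm45322* or Letm2-208 occurs in an annotated small structural RNA, and 1.10% of those of Yipf1-208 and 0.951% of those of *Gm37625* do. Nuclear tRNAs were not among the sequences searched, so sharing with them was not tested for any member.

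Between members, Slc38a6-208 shares 112 windows with *Gm37614* and 97 with *Gm47652* in its own direction, and 691 with *Gm45322* in the opposite direction. *Gm37614* and *Gm45322* share 65 windows, also in opposite directions. *Yipf1*, *Letm2* and *Gm37625* share none with any other member in windows of this length. Counts of *Slc38a6*, *Gm47652*, *Gm37614* and *Gm45322* are therefore uncertain to the extent that reads fell in shared sequence. No repeat annotation was used here, and the shared sequence was not assigned to a family.

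As a description only, the direction of the shared sequence went with the level in the p-UPF1 IP. Transcripts of other genes that share at least 50 windows with the *Slc38a6*, *Gm47652*, *Gm37614* and *Gm45322* transcripts were sorted by whether the shared sequence runs as in *Slc38a6* or opposite to it. Of 19 in the *Slc38a6* direction with at least 1 CPM in Input, 14 had a p-UPF1 IP level under 10% of Input, with a median of 4.54%. Of 30 in the opposite direction, 2 did, with a median of 155%. Over all 16166 transcripts at that Input level, 24.9% lay under 10% and the median was 60.6%. The transcripts within a direction share reads with each other and with the members, so they are not independent, and the contrast was noticed in these data and has no test. *Slc38a6*, *Gm47652* and *Gm37614*, which run in the *Slc38a6* direction, were chosen for low p-UPF1 IP counts. Low levels of transcripts that share their reads may follow in part from that choice, and that part was not tested. It also depends on how the counting program treated strand and reads that match several transcripts, and the part of either was not tested.

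In the *Slc38a6* direction, *Gm44231* stood at a mean of 51.9 CPM in Input and 0.171 in the p-UPF1 IP, *B230220B15Rik* stood at 47.2 and 0.289, and *Rab3gap1* (ENSMUST00000186865.6) at 46.3 and 1.30. The 123179-nt transcript of *D10Wsu102e* was the exception among the more abundant ones, at 308 and 112 CPM. Without it, the transcripts of this direction summed to 386 CPM in Input and 12.5 in the p-UPF1 IP, and with it to 694 and 124.

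In the opposite direction, *Gm42860* stood at 2181 CPM in Input and 970 in the p-UPF1 IP, one transcript of *Noct* (ENSMUST00000144826.1) at 763 and 780, and *Gm29084* at 268 and 686. All transcripts of this direction summed to 5732 CPM in Input and 7379 in the p-UPF1 IP. The 2 under 10% were transcripts of *Sirt5* (ENSMUST00000221481.1, 3.36%) and *Xpnpep1* (ENSMUST00000236008.1, 4.26%), whose other transcripts ENSMUST00000222106.1 and ENSMUST00000236456.1, likewise opposite to *Slc38a6*, stood at 923% and 87.8%. *Gm45322*, the member that runs this way, kept 9.83% of its Input level, under 10% and unlike most transcripts of this direction. It kept the most of the 7, but all were chosen to be low, so their order says nothing of direction. Of the 6 partners of *Gm37625*, all opposite to it, 2 had at least 1 CPM in Input and both kept more than their Input level: *Gm30948* stood at 115 CPM in Input and 131 in the p-UPF1 IP, and *Gm38246* at 69.0 and 140.

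**Figure D4:**
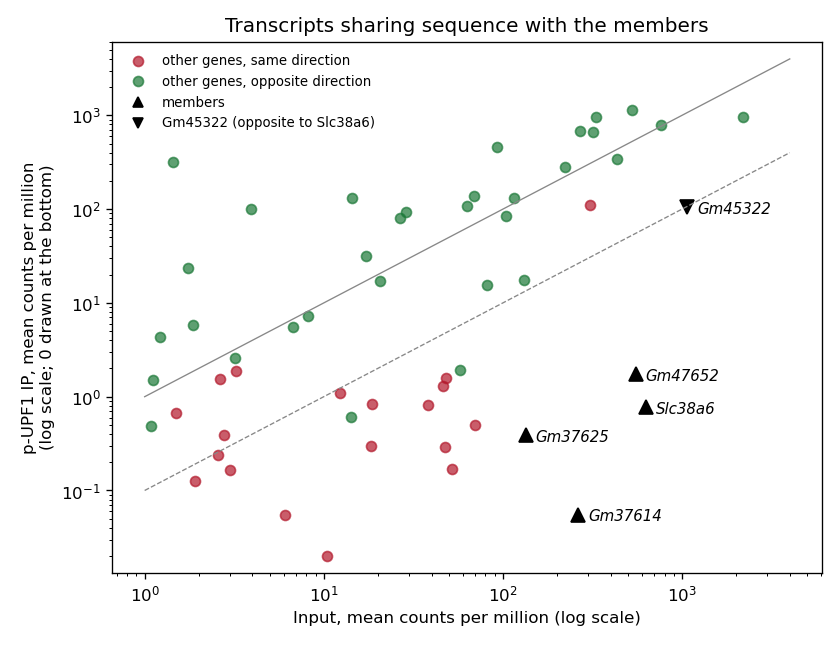
Mean CPM in Input (horizontal) and p-UPF1 IP (vertical), both on log scales, of transcripts that share at least 50 windows with a member. Transcripts of other genes under 1 CPM in Input are left out. The solid line marks equal levels and the dashed line 10%. Of the 19 transcripts in the *Slc38a6* direction 14 lie under the dashed line, against 2 of 30 opposite to it, and *Gm45322* lies just below the line. The points of the opposite direction also include 2 partners of *Gm37625*, opposite to that member, which lie above the dashed line.

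Reading frames had a direction in some of the transcripts. The longest stretch without a stop codon on the strand opposite to the annotated transcript was 644 codons in Slc38a6-208, 604 in *Gm47652* and 618 in *Gm37625*, lengths reached by 0.0832%, 0.0978% and 0.0905% of the 68537 annotated transcripts of at least 1000 nt. On their own strand the same transcripts held at most 135, 165 and 180 codons. The most-counted *Slc38a6* transcript, Slc38a6-202, did not show this: it held 134 codons on its own strand and fewer on the opposite one, a length that 80.6% of transcripts reach. *Gm45322* held 378 codons on its own strand and 111 on the other. Among the partners above 1 CPM, 28 of 30 in the opposite direction had the longer stretch on their own strand, against 8 of 19 in the *Slc38a6* direction. Letm2-208 and Yipf1-208 held 140 and 131 codons on the opposite strand, which 48.5% and 55.8% of transcripts also reach.

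Relatives of the coding members kept much more of their Input level, a difference largely set in advance because the members were chosen by a low ratio. The counts of each coding member also lay mostly in 1 transcript, so the values below are a description of the relatives alone. Of the other Yipf genes, trafficking proteins of the Golgi and endoplasmic reticulum, 5 were tested against Input in the p-UPF1 IP, and 2 passed in edgeR, *Yipf4* and *Yipf6*, both lower. *Yipf4* stood at 11.9 ± 0.442 CPM in Input and 2.35 ± 0.605 in the p-UPF1 IP (SD, n = 3), *Yipf5* at 7.81 ± 0.325 and 7.30 ± 1.46, and *Yipf3* at 5.14 ± 0.193 and 10.4 ± 2.12. Both *Letm2* relatives were tested and 1 was higher in edgeR, *Letmd1* at 10.2 ± 0.210 and 29.7 ± 4.48 CPM, while *Letm1*, a mitochondrial ion exchanger, stood at 5.93 ± 0.620 and 9.70 ± 1.77. Of the other amino acid transporters, 6 of 10 listed were tested and 1 passed in edgeR, *Slc38a7*, which was higher at 36.2 ± 6.38 CPM against 11.8 ± 1.27 in Input. *Slc38a2* stood at 158 ± 8.89 and 240 ± 19.1, *Slc38a1* at 83.3 ± 4.14 and 76.8 ± 5.28, and *Slc38a10* at 19.7 ± 1.12 and 47.2 ± 2.72. Higher calls covered 17.3% and lower calls 26.5% of all symbols, and the median log2 fold change was -0.50 for the Yipf relatives, 0.72 for the Letm relatives and 0.53 for the transporters against -0.42 over all symbols. In the rIgG IP against Input, the edgeR adjusted p of the 12 relatives tested ran from 0.2188 to 0.8678.

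Small structural RNAs, such as the small nuclear RNAs of the spliceosome, were counted beside the members. Of 329 tested, 18 were higher and 109 lower in the p-UPF1 IP than in Input, with a median log2 fold change of -1.24, where 17.3% and 26.5% of all symbols were called and the median was -0.42. Of 316 tested, 28 were higher and 4 lower in the rIgG IP than in Input, where 0.584% and 0.313% of all symbols were called. Of 157 tested, 10 were higher and 50 lower in the p-UPF1 IP than in the rIgG IP, where 17.5% and 5.34% of all symbols were called.

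Symbols whose profile over the 9 libraries was among the most like the mean of the members, measured by Pearson's r of log2(CPM + 1) over symbols with at least 10 CPM in Input, were *mt-Co1* (r = 0.999), *Rps3* (0.999), *mt-Cytb* (0.998) and *Gm26825* (0.998). The 9 points fall into the 3 groups, so r is a description of the group means. *mt-Co1* and *mt-Cytb*, mitochondrial genes of the respiratory chain, stood at 2014 and 848 Input CPM, against 101 and 29.9 with the p-UPF1 antibody, and *Rps3*, a ribosomal protein gene, kept 12.9% of its Input level. Of symbols as abundant as the members, *Gm26315*, *Gm26825* and *Gm28439* had the lowest ratios, each with 0 counts in all 3 p-UPF1 IP libraries. The Input counts of *Gm26825* were 9126, 7217 and 10012 and its rIgG IP counts 87, 56 and 11, those of *Gm28439* 4672, 4390 and 5197 against 76, 50 and 12, and those of *Gm26315*, which varied most in the control pull-down, 29807, 31796 and 31347 against 573, 77 and 0.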

How the data were processed

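RNA from N2A cells was sequenced after RNase I footprinting, adaptor ligation to RNA ends and PCR in 9 libraries, 3 each of Input, rIgG IP and p-UPF1 IP. The deposited values are estimated counts per transcript, which the authors made with Salmon 0.13.1 from reads of at least 35 nt, on GRCm38.p6 with GENCODE M22, per the methods of the study and its processing notes. Salmon was run with its default parameters per the methods of the study, and the library type (strand) it was given or detected is not given in the sources used here. All values were whole numbers, every row had a gene symbol, and 0 value columns were left unmapped.

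Counts were summed per symbol or kept by transcript. Groups were compared with edgeR 4.0.16 (quasi-likelihood test, TMM scaling, a summed count of at least 10 over the 6 libraries compared, |log2 fold change| above 1 and Benjamini-Hochberg adjusted p under 0.05), with DESeq2 1.42.0 among the alternatives. Ratios of pooled shares carry exact conditional 95% intervals. The test was run on simulated counts of each comparison with 200 changed features. It recovered 52.5% of the changed symbols for rIgG IP over Input, 97.5% for p-UPF1 IP over Input and 86% for p-UPF1 IP over rIgG IP. By transcript it recovered 0%, 16.5% and 9% in the same order. The share of calls that were false was highest, at 13.6%, for p-UPF1 IP over rIgG IP by symbol. Replicates of one group differed by more than sampling noise, with chi-square per degree of freedom from 3.62 to 15.6.

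Positions and sequences came from GENCODE M21 (GRCm38). The members, lists and tests were chosen with earlier results of these data known. Genes named were the 7 members with their most-counted transcripts, the 3 relatives of each family with the highest Input CPM, the 5 symbols with the most similar profile (1 of them is not reported here), the 3 with the lowest p-UPF1 to Input ratio at the members' abundance, and genes overlapping the members or sharing sequence with them. The second *Slc38a6* transcript and single transcripts outside the rule were named after their values were seen.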

Additional observations from a re-analysis of the deposited data

How the results depend on the processing

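Across 477 values recomputed under alternative settings, 432 stayed on the same side of the test or, where no test was used, within 1 SD of the replicates or 1.5 times the count, 40 moved, 5 passed the threshold where they had not, and none changed direction. These bounds are wide for the shares in the p-UPF1 IP: that of Slc38a6-202 was 8.48% with all libraries and 0% without p-UPF1 IP replicate 2. Many of the 477 values belong to the p-UPF1 IP contrasts by which the members were chosen. Their direction was largely fixed in advance, so the tally is no measure of support for them. For rIgG IP over Input by symbol, 1 member was lower and 0 were higher. With library totals alone 1 member was also higher, and with no filter on low counts 1 was higher and 2 were lower, *Yipf1* and *Gm37625* being the additions. Leaving out 1 library gave 0 to 1 members higher. By transcript the same comparison had 0 lower members, against 1 in DESeq2, 4 with edgeR's filterByExpr, 2 with the replicate block, 4 when the 9 libraries were fitted together, and 0 to 5 when 1 library was left out. Lower calls over all transcripts rose with them, from 0 to 789 in DESeq2, 1980 with filterByExpr, 268 with the block, 1261 with the 9 libraries together and 1473 without rIgG IP replicate 3, which gave the 5. For p-UPF1 IP over rIgG IP by transcript, all 7 were lower, and leaving out 1 library gave 0 to 7, the value of 0 arising without any one of the p-UPF1 IP replicates, where 0 transcripts of the whole table were lower and 1 to 2 were higher. The cause was not tested.

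The share of the members in the library, with the 10 most-counted transcripts removed from the totals, was 3.58% in Input, 5.04% in the rIgG IP and 0.0451% in the p-UPF1 IP. Libraries with the same replicate number showed little shared deviation: the correlations of same-numbered deviations lay between -0.0297 and 0.0509. Such values, from 3 libraries per group, cannot tell whether same-numbered libraries came from the same cells. With the replicate block the log2 fold change of *Yipf1* in rIgG IP over Input was 0.97, and 98 symbols were higher and 69 lower in place of 95 and 51.

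Counts over all features moved by more than 1.5 times in several settings. For rIgG IP over Input by symbol, the median log2 fold change was -0.84 with TMM, -0.63 with library totals and 0.25 in DESeq2, which called 295 higher and 51 lower, and with no filter 256 were higher and 259 lower. For p-UPF1 IP over Input, library totals gave 4108 higher and 3160 lower in place of 2919 and 4480. The rIgG IP depth limits what the control can show: 3 counts there amount to up to 38.0 CPM.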
